A study of Mus musculus with 4 samples.

Results

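Genes of fatty acid uptake and mitochondrial β-oxidation were described in ventricles of ERRα knockout and wild-type mice at baseline. The orphan nuclear receptor ERRα is encoded by Esrra. The group was a list of 34 genes chosen by name, and every probe set annotated to exactly 1 of them was taken. That gave 35 probe sets for 28 of the genes, out of 10833 probe sets annotated to 1 gene on the array. The signals of the genes Acacb, Acot2, Acsl1, Cpt1b, Hadha and Ucp2 were not analysed here. Total RNA of 2 knockout and 2 wild-type samples had been hybridized to 4 one-colour oligonucleotide arrays, which give 1 scaled signal per probe set. The labels do not state strain, age, sex, how Esrra was disrupted, or whether the samples of a genotype came from separate mice, so the spread behind the p-values may be technical. The study's aim for these arrays was to compare gene expression of the 2 genotypes before any stress.

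The adult heart draws most of its energy from fatty acids. Lipoprotein lipase frees them from circulating triglyceride, membrane and cytosolic carriers bring them into the myocyte, and the carnitine shuttle moves the activated acyl chains into mitochondria. There the β-oxidation spiral shortens them by repeated cycles of dehydrogenation, hydration, a second dehydrogenation and thiolysis, and the electron-transferring flavoprotein passes electrons from the first dehydrogenation to the respiratory chain. ERRα and the PPAR receptors, with the coactivator PGC-1α, are known to act on genes of this pathway.

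On both Esrra probe sets the signal was far lower in knockout, and 1 of them was the only probe set of the array past the threshold. It gave 2688 and 2828 on the wild-type arrays and 83.6 and 55.2 on the knockout arrays (limma, adjusted p = 0.0441, a Benjamini-Hochberg adjusted p over 7453 probe sets). The knockout signals lay under the floor of 110 that was set for low values, so its fitted log2 difference of -4.65 rests on that floor, and its suffix marks possible cross-hybridization. The call was lost with the floor at the 5th percentile (adjusted p = 0.125) or the 40th (0.0574), with no filter on dim probe sets (0.118), with the replicate number as a block (0.263) and without any 1 array (0.442 to 0.752). The other gave 8598 and 8039 in wild type against 922 and 1050 in knockout (log2 -3.08, adjusted p = 0.179); it passed with the stricter filter (0.0156) and with a trended, robust prior (0.0059). On both, the groups lay far apart. Spearman correlations between pairs of arrays over all probe sets other than controls lay between 0.927 and 0.941. Most markers of heart muscle cells were strong on every array: Tnnt2, cardiac troponin T, gave between 85428 and 101481. Actn2 was weaker, with between 1391 and 3268. The ratio of 5′ to 3′ signal, a sign of RNA and labelling quality, was 0.966 and 0.909 for β-actin on the wild-type arrays and 0.694 and 0.813 on the knockout arrays. For Gapdh it was 1.04 and 1.01 against 0.994 and 0.968.

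Of the fatty acid genes, none passed the threshold, and most had slightly lower signals in knockout. After probe sets with a mean signal under 350.6 were left out, 30 member probe sets for 26 genes could be tested. limma called 0 of the 30 at an adjusted p under 0.05, against 0.0134% of all 7453 probe sets, and the lowest adjusted p of a member was 0.694. At an unadjusted p under 0.05 it called 1 of the 30, the Etfdh probe set, against 6.79% of all. By gene, with the probe set of highest mean signal for each, 20 of the 26, or 76.9%, had a lower mean in knockout and 6 a higher one. Of all 5653 genes 48.5% had a lower mean, and of the 1221 genes among the strongest 20% of probe sets 57%. The members had a median log2 difference of -0.17, against 0.01 over all genes and -0.04 over those 1221. With 4 arrays the smallest two-sided p of an exact permutation test is 0.333, and no such test was run.

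Without a model, a probe set was counted as lower in knockout where both knockout arrays lay below both wild-type arrays. Of the 30 member probe sets 7 were lower in this sense, or 23.3%, against 16.7% of all probe sets, and 4 were higher, or 13.3%, against 20.7%. Counted by gene, 7 of 26 were lower against 17.5% of all genes, and 2 of 26 were higher against 19.9%. The members are abundant transcripts. Of the 30, 23 lay in the strongest 20% of probe sets, where 24.1% were lower without overlap and 16.7% were higher. Of those 23, 6 were lower (26.1%) and 1 was higher (4.35%). The share of lower members thus stood close to that of the strongest 20% as a whole, and the share of higher members stood below it. With a difference of at least 1.5-fold between the group means added, 1 member was lower, Etfdh, against 4.12% of all probe sets, and 0 were higher, against 6.84%.

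**Figure D1:**
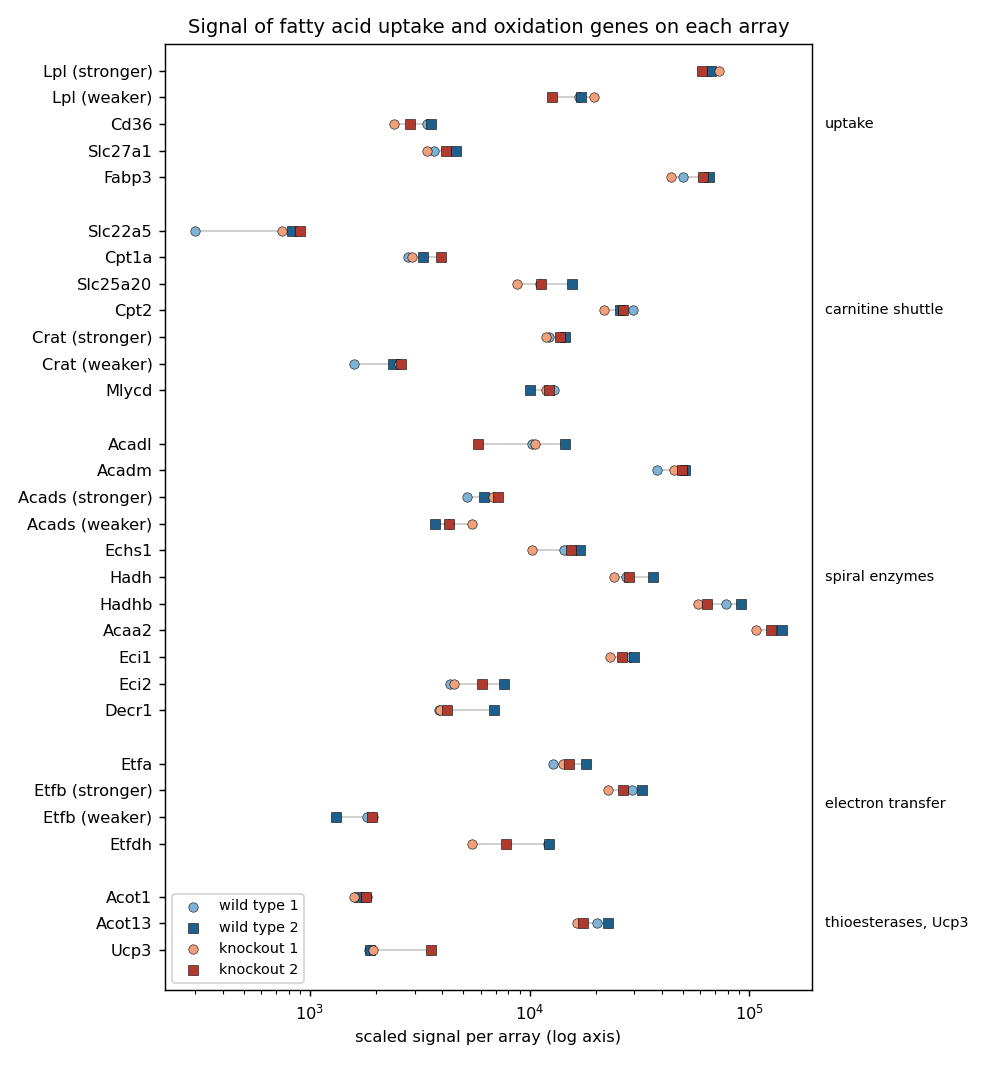
Scaled signal on each of the 4 arrays (log axis) for the 30 member probe sets, ordered by step of the pathway. Circles are array 1 and squares array 2 of a genotype, blue is wild type and red is knockout; the signals run from 298 for Slc22a5 to 141608 for Acaa2.

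Sequences upstream of the genes that were lower without overlap are given for reference, since ERRα binds DNA at an extended half-site. They are promoter windows of RefSeq on build GRCm38.p6, from 250 bases before to 50 bases after a gene's start, read 5′ to 3′ on the gene's own strand. Of the 34 genes, 28 had at least 1 such window, 31 windows in all. The 3 shown belong to Etfdh (chr3:79628718-79629017, minus strand), Hadhb (chr5:30155003-30155302, plus strand) and Cd36 (chr5:17835847-17836146, minus strand), the members with the largest differences among those lower without overlap. Capitals mark the nuclear receptor half-site AGGTCA on either strand.
Etfdh: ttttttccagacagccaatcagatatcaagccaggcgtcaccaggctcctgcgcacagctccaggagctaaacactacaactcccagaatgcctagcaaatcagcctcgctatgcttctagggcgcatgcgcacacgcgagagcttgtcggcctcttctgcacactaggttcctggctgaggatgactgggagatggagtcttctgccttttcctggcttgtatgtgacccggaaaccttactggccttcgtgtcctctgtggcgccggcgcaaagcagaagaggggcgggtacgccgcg
Hadhb: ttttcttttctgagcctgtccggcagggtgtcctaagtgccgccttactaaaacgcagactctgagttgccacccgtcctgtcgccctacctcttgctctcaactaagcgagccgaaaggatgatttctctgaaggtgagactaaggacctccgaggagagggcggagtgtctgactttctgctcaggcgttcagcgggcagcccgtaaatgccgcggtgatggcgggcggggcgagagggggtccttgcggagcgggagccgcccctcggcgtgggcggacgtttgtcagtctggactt
Cd36: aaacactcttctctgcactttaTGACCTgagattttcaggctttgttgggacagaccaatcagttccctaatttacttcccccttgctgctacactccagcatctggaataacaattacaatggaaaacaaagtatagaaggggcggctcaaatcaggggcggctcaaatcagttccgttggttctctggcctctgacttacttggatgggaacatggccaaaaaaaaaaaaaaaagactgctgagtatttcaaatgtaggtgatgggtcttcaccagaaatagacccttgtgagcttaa

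The ERR response element TNAAGGTCA was in 0 of the 31 member windows on either strand, against 1.28% of 32851 windows of all genes. The half-site AGGTCA, which the longer element contains, was in 7 of the 31, or 22.6%, against 16.3% of all windows. The 7 windows belonged to Acadm, Cd36, Acacb, Ucp3, Echs1, Acadvl and Cpt1a, and that of Ucp3 held 2 copies. Only 5 of the 7 genes lower without overlap had a window, and 1 of these 5 windows held it, that of Cd36. A match describes letters only, and a window without one says nothing about binding elsewhere. The Hadhb window shares 228 bases with that of Hadha, the gene of the other trifunctional protein subunit, which lies on the opposite strand (chr5:30154931-30155230).

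Uptake and activation were covered by 4 genes, all with a difference of at most 0.41 on the log2 scale. Cd36, the fatty acid translocase of the plasma membrane, gave 3405 and 3552 on the wild-type arrays and 2420 and 2839 on the knockout arrays. Both knockout signals were below both wild-type signals, a 1.33-fold difference (log2 -0.41, SE 0.21, limma adjusted p = 0.791). A second Cd36 probe set stayed at 18.7 or below on every array and was not tested. Fabp3, the heart fatty acid-binding protein of the cytosol, gave 49790 and 65624 in wild type and 43949 and 61859 in knockout. The 2 arrays of each genotype lay further apart than the genotypes did (log2 -0.13, SE 0.29). Slc27a1, the fatty acid transport protein FATP1, gave 3674 and 4608 against 3396 and 4147 (log2 -0.13, SE 0.24), and the groups overlapped.

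Lpl, lipoprotein lipase, had the same mean signal in both genotypes on the stronger of its 2 probe sets. That probe set gave 66375 and 67179 in wild type and 73176 and 60706 in knockout (log2 0.00, SE 0.21). The weaker gave 16843 and 17184 against 19605 and 12621 (log2 -0.11, SE 0.29). On both, the wild-type arrays lay close together, and knockout array 1 was the highest and knockout array 2 the lowest of the 4.

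The carnitine shuttle showed no common direction, with 3 of 6 genes lower and 3 higher and a median of 0.01. Slc25a20, the carrier that exchanges acylcarnitine for carnitine across the inner membrane, gave 11141 and 15571 in wild type and 8742 and 11244 in knockout. Its groups overlapped, because knockout array 2 lay just above wild-type array 1 (log2 -0.41, SE 0.28, limma adjusted p = 0.823). Cpt2, the carnitine palmitoyltransferase of the inner membrane, gave 29522 and 25791 against 21833 and 26671 (log2 -0.19, SE 0.23). Its second probe set was 23.9 or below on 3 arrays and 194 on knockout array 2 and was not tested. Cpt1a, the liver isoform of the outer-membrane transferase, gave 2800 and 3259 in wild type and 2919 and 3956 in knockout (log2 0.17, SE 0.25). These groups overlapped as well.

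Slc22a5, the plasma membrane carnitine transporter OCTN2, had the largest positive difference of any member, and 1 array carried it. It gave 298 and 823 in wild type and 747 and 903 in knockout (log2 0.73, SE 0.53, limma adjusted p = 0.829). Wild-type array 1 was the low one, and without it the log2 difference was 0.00. Crat, the carnitine acetyltransferase of the mitochondrial matrix, gave 12263 and 14485 against 11887 and 13750 on its stronger probe set (log2 -0.06, SE 0.22). Its weaker probe set, whose suffix marks possible cross-hybridization, gave 1587 and 2394 against 2534 and 2589, higher in knockout without overlap (log2 0.39, SE 0.28). Mlycd, malonyl-CoA decarboxylase, which removes the inhibitor of the outer-membrane transferase, gave 12924 and 10038 against 11866 and 12297 (log2 0.08, SE 0.23).

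Spiral enzymes were lower in mean for 8 of 10 genes, 3 of them without overlap (against 17.5% of all genes), with a median of -0.26. That median was -0.12 without wild-type array 2, -0.13 without knockout array 1 and -0.45 without wild-type array 1. The 3 act at the later reactions or on unsaturated chains. Hadhb, the β subunit of the trifunctional protein that carries the long-chain thiolase, gave 78559 and 91697 on the wild-type arrays and 58506 and 64612 on the knockout arrays. The lower wild-type array stood well above the higher knockout array, a 1.38-fold difference (log2 -0.47, SE 0.21, limma adjusted p = 0.762). Acaa2, the mitochondrial 3-ketoacyl-CoA thiolase and the strongest member, gave 132373 and 141608 against 107096 and 125341 (log2 -0.24, SE 0.21). Eci1, an enoyl-CoA isomerase needed for unsaturated fatty acids, gave 28542 and 29773 against 23330 and 26471 (log2 -0.23, SE 0.20). Neither of these 2 passed (adjusted p = 0.840 and 0.843), and each genotype difference was only a little larger than its standard error.

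**Figure D2:**
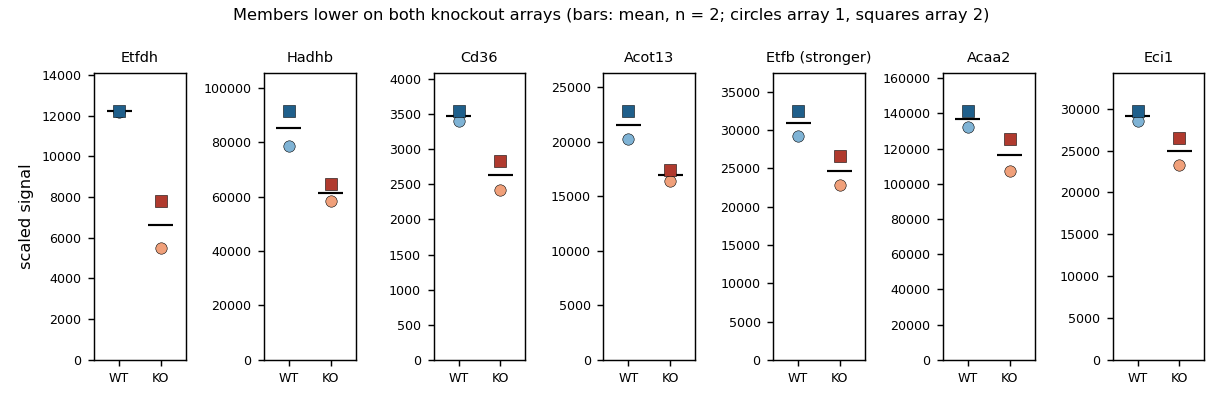
Scaled signal on each array for the 7 members whose knockout arrays both lay below both wild-type arrays, each panel starting at 0. Horizontal bars are means of 2 arrays; as a ratio of means, the gap between genotypes is widest for Etfdh (12213 against 6640) and narrowest for Eci1.

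The acyl-CoA dehydrogenases, which open each turn of the spiral and differ in the chain length they prefer, showed no common direction. Acadl, the long-chain enzyme, gave 10271 and 14466 in wild type and 10639 and 5840 in knockout. Its low mean in knockout came from array 2, and the groups overlapped (log2 -0.63, SE 0.38, limma adjusted p = 0.814; -0.20 without that array). Acadm, the medium-chain enzyme, gave 38188 and 51201 against 45603 and 49654, and here both knockout arrays fell between the wild-type arrays (log2 0.11, SE 0.24). Acads, the short-chain enzyme, gave 5189 and 6180 against 6783 and 7172 on its stronger probe set, higher in knockout without overlap (log2 0.30, SE 0.21, adjusted p = 0.829). Its weaker probe set pointed the same way but overlapped, at 4304 and 3705 against 5463 and 4284 (log2 0.28, SE 0.24). The 2 probe sets of Acadvl, the very-long-chain enzyme, stayed at 212 or below on every array, below the signal needed for a test, and give no usable value for that gene.

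The other spiral enzymes had lower means in knockout with overlapping groups. Echs1, the short-chain enoyl-CoA hydratase, gave 14290 and 17009 against 10228 and 15496 (log2 -0.31, SE 0.29). Hadh, the 3-hydroxyacyl-CoA dehydrogenase for medium and short chains, gave 27524 and 36596 against 24320 and 28493 (log2 -0.27, SE 0.25). In both, knockout array 1 was the lowest and wild-type array 2 the highest. Without knockout array 1 the log2 difference was -0.01 for Echs1, and without wild-type array 2 it was -0.06 for Hadh. Decr1, the 2,4-dienoyl-CoA reductase, gave 3852 and 6858 against 3903 and 4219 (log2 -0.34, SE 0.34). Eci2, a second enoyl-CoA isomerase, gave 4362 and 7673 against 4513 and 6056 (log2 -0.15, SE 0.36). For Decr1 wild-type array 2 alone stood clearly above the others. For Eci2 it was the highest and knockout array 2 came next, both above the array 1 of their genotype. Without wild-type array 2 the log2 differences were 0.08 for Decr1 and 0.26 for Eci2. Ehhadh, the peroxisomal bifunctional enzyme, gave 178 and 210 against 55.4 and 315 and was too dim to test.

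Electron transfer held the largest difference of any member. Etfdh, the ETF-ubiquinone oxidoreductase of the inner membrane, gave 12179 and 12246 on the wild-type arrays and 5488 and 7793 on the knockout arrays. The wild-type arrays nearly coincided, and the higher knockout array was well below them. The difference was 1.87-fold (log2 -0.90, SE 0.26, unadjusted p = 0.0198, limma adjusted p = 0.694 over 7453 probe sets) and did not pass. Left out in turn, no single array turned its direction, and the log2 difference stayed between -1.15 and -0.65.

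The 2 probe sets of Etfb, the β subunit of the flavoprotein, went opposite ways, each without overlap. The stronger gave 29275 and 32555 in wild type and 22822 and 26563 in knockout (log2 -0.33, SE 0.21, limma adjusted p = 0.820). The weaker gave 1822 and 1312 against 1937 and 1913 (log2 0.32, SE 0.25). With the mean of both probe sets in place of the stronger, the median of the 3 electron transfer genes went from -0.33 to -0.05. Etfa, the α subunit, gave 12784 and 18112 against 14256 and 15053, with both knockout arrays between the wild-type arrays (log2 -0.05, SE 0.26).

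Of the thioesterases, which release free fatty acid from acyl-CoA, Acot13 was lower in knockout without overlap. It gave 20250 and 22838 in wild type and 16372 and 17431 in knockout, a 1.27-fold difference (log2 -0.35, SE 0.20, limma adjusted p = 0.810). Acot1, a cytosolic thioesterase, gave 1818 and 1677 against 1583 and 1790 (log2 -0.05, SE 0.21), and the groups overlapped. Acot1 and its neighbour Acot2 are close relatives, so binding of RNA of one to the other's probes cannot be told apart here. Ucp3, a mitochondrial carrier of the uncoupling protein family, gave 1853 and 1870 in wild type and 1935 and 3565 in knockout. Both knockout arrays were higher, but only array 2 by much (log2 0.50, SE 0.35, adjusted p = 0.829).

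**Figure D3:**
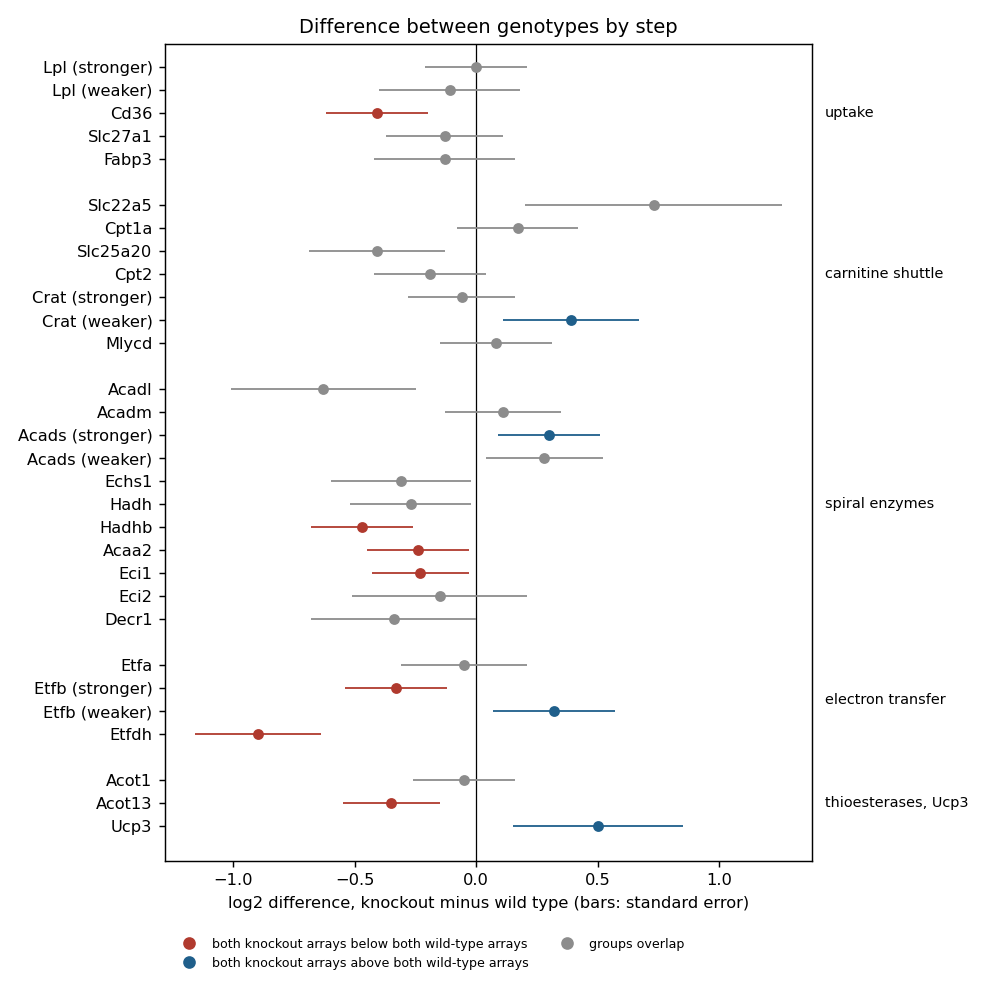
Log2 difference between genotypes with its standard error for the 30 member probe sets, by step; red marks 7 lower and blue 4 higher without overlap, grey marks overlap. Etfdh at -0.90 is the lowest and Slc22a5 at 0.73 the highest.

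The 2 arrays of a genotype differed over these genes by as much as the genotypes did. Wild-type array 2 gave a higher signal than wild-type array 1 for 25 of the 30 member probe sets, with a median difference of 0.22 on the log2 scale, and knockout array 2 was above knockout array 1 for 25 of 30, with a median of 0.20. For 22 of the 30, or 73.3%, array 2 was the higher in both genotypes, against 25.7% of all probe sets and 27.6% of the strongest 20%. Over the strongest 20% the 2 medians were 0.00 and 0.04. Among the spiral enzymes 9 of 11 probe sets behaved so. The 8 that did not were both Lpl probe sets, Acadl, the weaker Acads and Etfb probe sets, Acot1, Mlycd and Cpt2. The labels do not say that an equal number joins a wild-type to a knockout sample, and over all 7453 probe sets the deviations of same-numbered arrays had a correlation of 0.011.

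**Figure D4:**
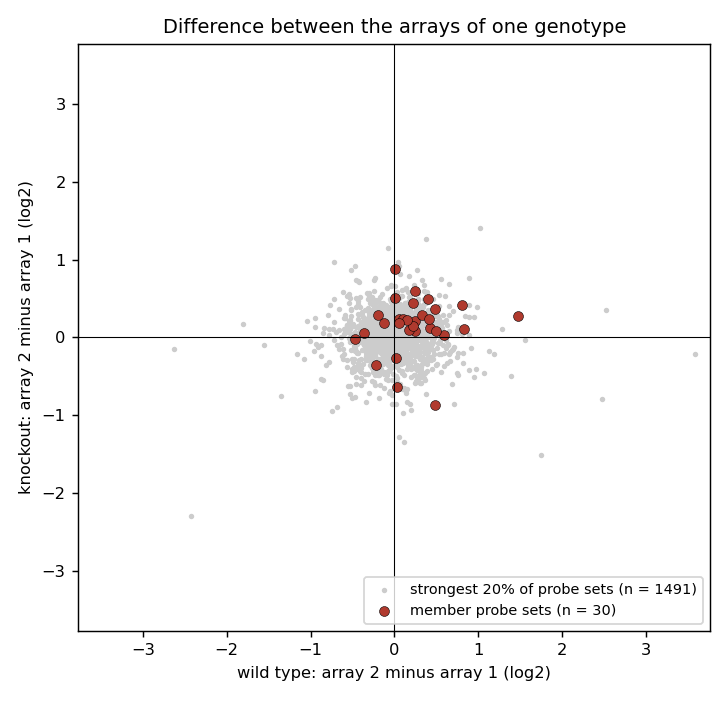
Log2 difference between array 2 and array 1 within wild type (horizontal) and within knockout (vertical), for the 30 member probe sets in red and the strongest 20% of all probe sets (n = 1491) in grey. Of the members, 22 lie to the upper right, above 0 on both axes; the grey points centre near 0 on both axes.

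The same was seen in the order of the arrays. Wild-type array 2 was the highest of the 4 for 18 of the 30 member probe sets, or 60%, against 28% of the strongest 20%. Knockout array 1 was the lowest for 15, or 50%, against 32.1%. The median deviation from a gene's mean over the 4 arrays was 0.24 on wild-type array 2 and -0.21 on knockout array 1, with wild-type array 1 at -0.02 and knockout array 2 at 0.03. Wild-type array 1 and knockout array 2 therefore gave nearly the same level for the median member. Without knockout array 1 the median log2 difference over the members was -0.03, and without wild-type array 2 it was -0.08. Without knockout array 2 it was -0.33 and without wild-type array 1 -0.30.

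Marker genes of heart muscle and of other cells also differed between these arrays. Their counts stand beside 17.5% of all genes lower and 19.9% higher without overlap, and 48.5% with a lower mean. Of 10 cardiomyocyte markers, 8 were kept, and 6 of the 8 had a lower mean in knockout, 3 without overlap, with a median of -0.11. Their summed signal was 893737 and 863979 on the wild-type arrays and 731602 and 865563 on the knockout arrays. It was lowest on knockout array 1, as the fatty acid genes were. Its highest value was on wild-type array 1, while the fatty acid genes were highest on wild-type array 2. All 6 of the fibroblast markers, which are genes of the extracellular matrix and Pdgfra, were higher in knockout without overlap, with a median of 0.43 and summed signals of 61434 and 71879 against 84120 and 88242. Of the 8 endothelial markers, 7 had a lower mean and 3 were lower without overlap (median -0.22; summed signals 36652 and 29387 against 29094 and 26014). Of the adipocyte markers 4 of 8 were kept, and 3 were higher without overlap (summed signals 4927 and 4305 against 6247 and 6837). The remaining kept marker, Fabp4, had a log2 difference of -0.02. Lep was counted on its stronger probe set, and its weaker kept probe set had -0.76 with overlap. The atrial markers Myl4, Myl7 and Nppa were all higher without overlap (summed signals 10604 and 8805 against 17249 and 16639), and Sln was too dim to test. Of 4 kept immune markers 2 were higher without overlap, while Ptprc, which marks all white blood cells, stayed at 214 or below. Of 3 smooth muscle markers Acta2 was higher without overlap. Of 3 kept skeletal muscle markers 2 were lower (Acta1 and Ckm) and 1 was higher (Myh4), each without overlap. Ckm was counted on its stronger probe set, and its weaker kept probe set had 0.54 with overlap. Myh1 and Tnnt3 were too dim to test. Of the brown fat markers, Cidea was lower and Ucp1 was too dim to test. Cd36, Lpl and Fabp4 are also made by endothelial or fat cells. In whole ventricle, fewer cells of a type and less RNA per cell cannot be told apart, and the part of these shifts in the result was not tested. The β-actin ratio of 5′ to 3′ signal was lowest on knockout array 1, as the fatty acid genes were, but its highest value was on wild-type array 1 and theirs on array 2. Its part was not tested either.

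When each array was instead scaled on its cardiomyocyte markers, an alternative added after the data were seen, the median over the 26 fatty acid genes was -0.01 and that over all genes was 0.17. On that scale 5 of the 30 member probe sets were lower without overlap, or 16.7%, against 7.47% of all probe sets, and 9 were higher, or 30%, against 33.3%. The 5 were among the 7 lower on the deposited scale; Acaa2 and Eci1 no longer counted. After median scaling, the members' median was -0.29 and that of all genes -0.11, with 12 lower, or 40%, against 27% of all probe sets, and 0 higher, against 12.9%. A single factor per array moves all genes alike, so the members' median differed from that of all genes by -0.18 under these scalings, while the direction of single members depended on them. After quantile normalization it was -0.12. On the cardiomyocyte scale the log2 difference was -0.74 for Etfdh, -0.31 for Hadhb and -0.25 for Cd36. It was -0.19 for Acot13, -0.17 for the stronger Etfb probe set, -0.08 for Acaa2 and -0.07 for Eci1, so all 7 were nearer 0 there.

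**Figure D5:**
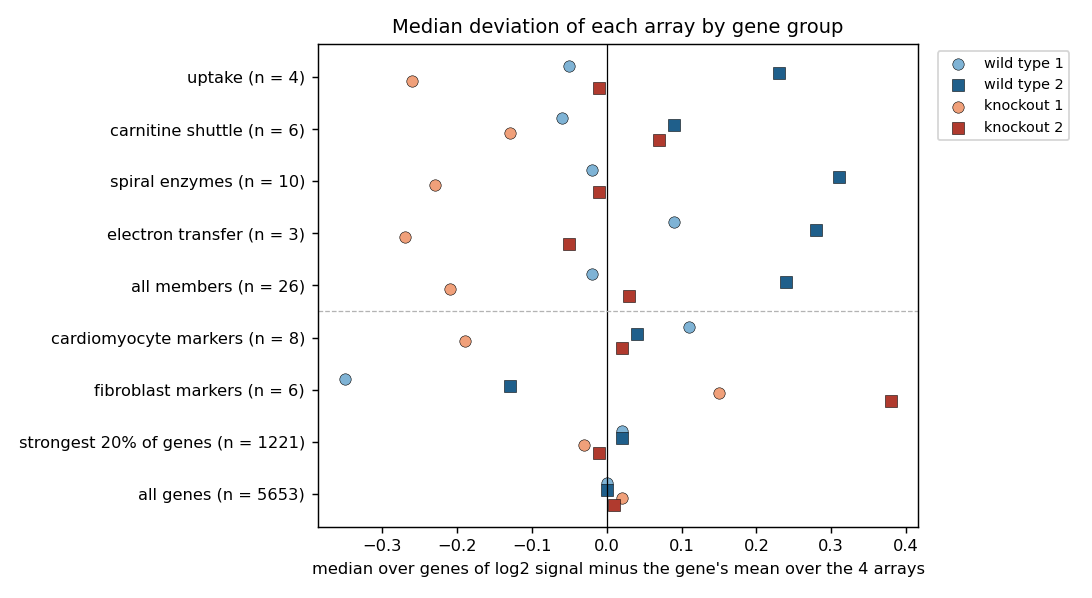
Median over genes of the log2 signal on each array minus the gene's mean over the 4 arrays, for the steps and all members above the dashed line and for comparison groups below it. Wild-type array 2 is the right-most and knockout array 1 the left-most point for the members (0.24 and -0.21), while all genes stay within 0.02 of 0.

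Genes around the pathway were counted from 4 further lists, and apart from the 1 Esrra probe set none of their probe sets passed. Beside these counts, 17.5% of all genes were lower and 19.9% higher without overlap. Of 9 genes on the peroxisomal list, which was drawn up by name, 3 were lower and 1 higher without overlap, with a median of -0.03. That median was -0.30 without cross-hybridizing suffixes, -0.16 with the stricter filter and 0.13 on the cardiomyocyte scale, and without 1 array or another it ran from -0.31 (without knockout array 1) to -0.06. Scp2, which encodes the peroxisomal thiolase SCPx and a sterol carrier, gave 6405 and 8027 in wild type and 2974 and 4956 in knockout (log2 -0.90, SE 0.33, limma adjusted p = 0.724). The suffix of that probe set marks possible cross-hybridization. A second Scp2 probe set, without such a suffix, had -0.66 with overlapping groups, and wild-type array 2 was the high one there. On its weaker probe set Cat, catalase, gave 2440 and 2027 against 1746 and 1511 (log2 -0.45), lower without overlap. Its stronger probe set, which was the counted one, had a log2 difference of 0.20 with overlap, and its suffix marks possible cross-hybridization. Hsd17b4, the bifunctional enzyme of peroxisomes, gave 4378 and 5583 against 2512 and 3993, lower without overlap (log2 -0.64, SE 0.32, limma adjusted p = 0.783). The 3 genes counted as lower were therefore Scp2, Hsd17b4 and Ech1. With suffixed probe sets left out, 3 of 9 were still lower, against 18.3% of all genes, with Cat in place of Scp2. Ech1, named outside the rule for named genes, gave 83956 and 84982 against 77677 and 60941 (log2 -0.30, SE 0.23). Of 9 other acyl-CoA genes 3 were lower and 3 higher, with a median of 0.15 (0.00 without knockout array 2, 0.05 without wild-type array 1). Acsl4, an acyl-CoA synthetase for arachidonic acid, gave 482 and 420 against 636 and 788 (log2 0.65), and Acsl5 gave 551 and 653 against 446 and 401 (log2 -0.50).

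Of 10 genes of lipid uptake and storage, 1 was lower and 1 higher, with a median of 0.00. They were Pnpla2, the adipose triglyceride lipase, with 35140 and 27316 against 21787 and 24579 (log2 -0.42), and Lipe, the hormone-sensitive lipase, with 1643 and 1464 against 2201 and 2236 (log2 0.52). Of 9 regulators and PPAR targets, 6 were higher and 2 lower without overlap, Esrra among the latter, with a median of 0.44. That median was -0.04 without cross-hybridizing suffixes, 0.11 with the stricter filter, 0.29 with no filter and 0.29 to 0.33 without 1 array or another. Ppargc1a, Pdk4 and Ppara are named outside the rule for named genes, their values having been seen. Ppargc1a, which encodes PGC-1α, gave 368 and 435 in wild type and 793 and 589 in knockout (log2 0.77, SE 0.25, limma adjusted p = 0.694). Pdk4, the kinase that turns pyruvate dehydrogenase off when fat is burned, gave 29641 and 21918 against 32119 and 43337 (log2 0.55, SE 0.28, adjusted p = 0.791). Ppara gave 2400 and 1304 against 1852 and 1597, with both knockout arrays between the wild-type arrays (log2 -0.04, SE 0.36).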

How the data were processed

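The authors deposited 1 intensity per probe set and array, on a linear scale and not pooled over samples; the arrays had been scaled alike, with means trimmed by 2% at each end between 1482 and 1484. Summary software, background correction and build are not given in the sources used here. Per the labels' protocols, biotin-labelled cRNA was hybridized. Groups follow the sample titles. The 66 control probe sets were left out, and 10817 of 10833 probe sets with 1 gene matched RefSeq names (396 had several genes and 1193 none). Probe sets with a mean under the 40th percentile (350.6) were dropped, values under 110 (the 20th percentile) were set to it, and log2 values went into limma 3.58.1 (R 4.3.3, lmFit and eBayes, Benjamini-Hochberg over 7453 probe sets, threshold 0.05). The fit was tested on simulated data with decreases larger than the difference of any member, so that test does not cover differences of their size. The number of arrays, 2 per genotype, limits the precision. Members and lists were chosen with earlier results of these data known. Values on all arrays are given for every kept member, and from each further list for genes past the threshold or else the 2 lowest unadjusted p (3 where p was equal as printed). The comparison of arrays within a genotype, the highest and lowest array, and the background of the strongest 20% of probe sets were added after the data were seen. Alternatives changed floor, filter, scaling, prior, probe sets, the replicate number as a block, and left out each array.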

Additional observations from a re-analysis of the deposited data

How the results depend on the processing

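Over 15 alternatives, 14 of which gave such a count, 0 member probe sets passed the limma threshold. Without 1 array the Esrra call was lost as well, so a count of 0 there says nothing about stability. The count lower without overlap (7) and the count higher (4) kept within 1.5 times under the other floors, filters, quantile normalization, prior and suffix rule. After median scaling they were 12 and 0 (27% and 12.9% of all probe sets), and on the scale of the cardiomyocyte markers, added after the data were seen, 9 were higher (33.3% of all). With the replicate number as a block (the replicate block), 7 were lower, 4 higher and 0 past the threshold, and the median stayed -0.17. The block changed no call of a member, but the Esrra call was lost under it (adjusted p = 0.263), as it was with either other floor and with no filter; the Esrra probe set that made it is left out with the suffix rule. Same-numbered arrays shared only a number, with a correlation of 0.011. Without each array in turn, the counts ran from 10 to 18 lower (33.3% to 60%, against 31.5% to 32.4% of all) and from 6 to 10 higher (20% to 33.3%, against 36.6% to 37.3%), and the members' median from -0.33 to -0.03.

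The sign turned without 1 array or another for 13 of the 30 member probe sets, none of them past the threshold. Their log2 differences then ran from -0.14 to 0.13 and from -0.43 to 0.20 for the stronger and weaker Lpl probe sets, -0.30 to 0.03 for Slc27a1, -0.38 to 0.11 for Fabp3, 0.00 to 1.46 for Slc22a5, -0.05 to 0.39 for Cpt1a, -0.18 to 0.06 for Crat, -0.10 to 0.27 for Mlycd, -0.11 to 0.32 for Acadm, -0.55 to 0.26 for Eci2, -0.76 to 0.08 for Decr1, -0.31 to 0.20 for Etfa and -0.14 to 0.04 for Acot1. The sign also turned after quantile normalization for the stronger Lpl probe set (0.10), and after median scaling for Mlycd (-0.04) and Acadm (-0.02). On the cardiomyocyte scale it turned for Lpl (0.16 and 0.04), Slc27a1 (0.02), Fabp3 (0.03), Crat (0.10), Eci2 (0.01), Etfa (0.10) and Acot1 (0.10). Every turned value lay within 1 standard error of 0, and apart from the arrays left out or the factor applied, the cause was not tested.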
